A study of Mus musculus with 12 samples.

Results

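Tubulin genes were followed through mouse oocyte growth and meiotic maturation in WT and Zar1/2-null females. The set held 10 genes chosen by name from the 23230 genes of the expression table. It comprised 4 alpha tubulins (Tuba1a, Tuba1b, Tuba1c and Tuba4a), 5 beta tubulins (Tubb2a, Tubb2b, Tubb3, Tubb5 and Tubb6) and the gamma tubulin Tubg1. All 10 members reached 1 FPKM (fragments counted relative to transcript length and to the mapped total) in at least 1 library and were among the 11502 genes tested.

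Growing oocytes, full-sized oocytes with an intact germinal vesicle (GV) and ovulated oocytes, labelled MII for metaphase of meiosis II, were each represented by 2 WT and 2 Zar1/2-null libraries of 10 oocytes. By the sample labels, growing oocytes were taken at 13.5 days of age, GV oocytes from 21-day-old females 44 h after PMSG (a gonadotropin that drives follicle growth), and MII oocytes from the oviduct 16 h after hCG (a gonadotropin that triggers ovulation). The null animals lacked both Zar1 and Zar2, 2 oocyte RNA-binding protein genes disrupted in all cells by CRISPR/Cas9, and all mice were of a C57BL6/ICR hybrid background. The study describes ovulated null oocytes as stopped in meiosis I, so that MII is the label of the null libraries and not a matched meiotic stage. Genotype and meiotic stage cannot be told apart in any comparison that uses them. Neither the labels nor the methods state whether the libraries of a group came from separate females, so that p-values measure only the spread between these libraries.

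Microtubules are polymers of alpha and beta tubulin dimers, and the meiotic spindle that separates the chromosomes of the oocyte is built from them. Gamma tubulin sits in ring complexes that start new microtubules, a task that falls to many small organizing centres in the mouse oocyte because it has no centrioles. Mammals carry several alpha and beta genes whose proteins differ mainly at the C-terminal tail, where enzymes add or remove glutamate and tyrosine residues. Tubulin levels are also set at the RNA: when free dimers are plentiful, the protein TTC5 recognises the first residues of new tubulin at the ribosome and its mRNA is degraded.

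The coding starts of alpha and beta genes are shown because they encode the residues that this control reads. That of Tubg1 is given for comparison and differs from them within the first 4 codons. Each line gives the first 24 coding bases from the mm9 genome (5′ to 3′), with the first 4 codons in capitals. In the alpha genes the first codon lies in one exon and the rest in the next, so 2 stretches are joined. Tuba1b (chr15, minus strand) joined chr15:98764764-98764766 to chr15:98763606-98763626, Tuba1c (plus strand) joined chr15:98860853-98860855 to chr15:98864525-98864545, and Tuba4a (minus strand) joined chr1:75215768-75215770 to chr1:75213989-75214009. The others were single stretches, at chr13:34169775-34169798 (Tubb2a, minus strand), chr8:125935506-125935529 (Tubb3, plus strand), chr17:35974975-35974998 (Tubb5, minus strand) and chr11:100981508-100981531 (Tubg1, plus strand).
Tuba1b: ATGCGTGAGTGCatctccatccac
Tuba1c: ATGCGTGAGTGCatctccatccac
Tuba4a: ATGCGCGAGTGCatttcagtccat
Tubb2a: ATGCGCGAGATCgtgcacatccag
Tubb3: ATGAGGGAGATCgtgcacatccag
Tubb5: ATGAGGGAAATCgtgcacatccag
Tubg1: ATGCCGAGAGAAatcatcacccta
The 4 alpha members encoded 1 and the same set of first 4 residues through 2 versions of these bases. The 5 beta members likewise shared 1 set of 4 residues, written in 5 versions of the bases. Whether control by TTC5 had a part in any value was not tested.

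The coding ends of Tubb2a and Tubb2b are shown because these genes are hard to tell apart by short reads and yet gave different values. Each line gives the last 60 coding bases of the minus strand in mm9, stop codon included, with bases that differ within the pair in capitals. Tubb2a ended at chr13:34166337-34166396 and Tubb2b at chr13:34219340-34219399, both in the last exon.
Tubb2a: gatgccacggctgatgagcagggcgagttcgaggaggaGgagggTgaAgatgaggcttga
Tubb2b: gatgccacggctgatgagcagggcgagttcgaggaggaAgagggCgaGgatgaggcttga
The pair differed at 3 of these bases, and none of the differences changed 1 of the 19 residues. Over the whole protein, Tubb2a and Tubb2b differed at 2 of 445 residues and Tuba1a and Tuba1b at 2 of 451.

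Near-identical genes share reads, and the authors kept only reads with a unique place in the genome after trimming them to 50 bases. Of all 50-base windows of the Tuba1b transcript, 82.9% had an exact match elsewhere in mm9. The share was 69.6% for Tuba1a, 60.7% for Tuba1c, 57.3% for Tubb2b and 50.4% for Tubb2a. In Tubb3 it was 11.5%, in Tubg1 8.96%, in Tuba4a 1.55%, in Tubb5 1.39% and in Tubb6 0%. For Tuba1a, Tuba1b, Tuba1c, Tubb2a and Tubb2b the FPKM value therefore rests on part of the transcript, and levels between these genes are uncertain. Differences of one gene between groups rest on the same part of it in every library. Outside the set, the share was 57.9% for Tubb4b, 32.9% for Tuba3a and 29.0% for Tuba3b. Tuba4a also overlapped Stk16 on the opposite strand by 633 bases, where reads could not be told apart since the library kept no strand. Tubb3 lay within a longer model on its own strand, Gm20388, from which strand would not separate it. How far these features moved any value was not tested.

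**Figure D1:**
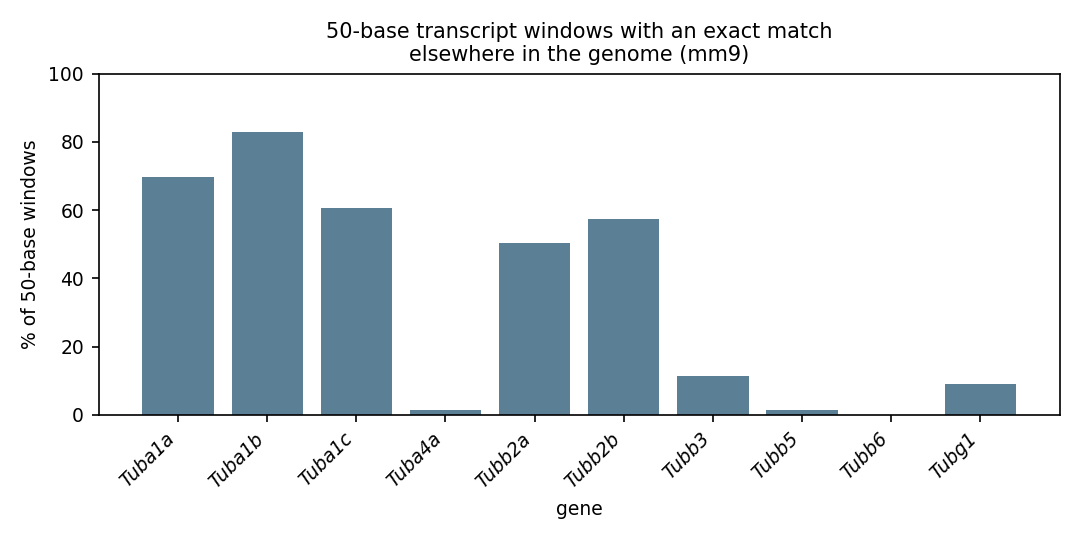
Share of the 50-base windows along each member's transcript (y axis, percent) that occur unchanged elsewhere in the mm9 genome, by gene (x axis). Tuba1b is highest at 82.9% and Tubb6 has none.

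The values analysed were FPKM that the authors had multiplied by a factor from the ERCC spike-in, synthetic RNA of known amount put into every sample. The factors were 1 in both WT growing libraries, 0.697 to 0.836 in WT GV, 0.225 and 0.228 in WT MII, 0.779 and 0.862 in null growing, 0.533 and 0.583 in null GV, and 0.252 and 0.283 in null MII libraries. The paper lists the total reads of each library, but the table holds no read counts, so that counting error per gene is not known. Since RNA was copied from its poly(A) tail, a lower value cannot tell lost RNA from RNA with too short a tail, nor less RNA per oocyte from fewer oocytes lysed. Zar1l, the symbol for Zar2, was 639 and 644 FPKM in WT growing oocytes and 17.5 and 13.2 FPKM in null ones, whereas RNA of the disrupted Zar1 was still present at 407 and 460 FPKM against 603 and 725. The summed level of 10 oocyte markers lay between 4508 and 20402 FPKM in all libraries and that of 14 granulosa and cumulus cell markers between 5.14 and 33.4 FPKM, with Ptx3 listed at 0 in every library.

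Tubulin transcripts were abundant in WT growing oocytes. Tubb6, a broadly expressed beta tubulin, was highest of the set at 266 and 324 FPKM and ranked above 95.9% and 96.9% of the genes tested. Tubb2a was at 187 and 232 FPKM, Tubb3, best known from neurons, at 152 and 185 FPKM, and Tubb5, a widespread beta tubulin, at 78.2 and 89.7 FPKM. These 4 genes did not overlap in level, whereas Tubb2a and Tubb3 were separated by less than the spread between the 2 libraries of either. Tubb2b, a near copy of Tubb2a, was at 7.93 and 7.80 FPKM.

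Among the alpha genes, Tuba4a, which encodes no C-terminal tyrosine, was highest in WT growing oocytes at 169 and 189 FPKM. Tuba1c followed at 74.7 and 75.0 FPKM and Tuba1b at 46.9 and 49.0 FPKM, both general alpha tubulins. Tuba1a, an alpha tubulin prominent in the developing brain, was at 0.706 and 1.38 FPKM and thus near the limit of the filter. Tubg1 was at 35.2 and 40.9 FPKM. One tubulin outside the set, Tubb4b, exceeded all of these at 1051 and 1154 FPKM and made up 59.1% of the summed FPKM of the 8 beta genes in the table (mean of 2 libraries), with the limit of shared windows given above.

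**Figure D2:**
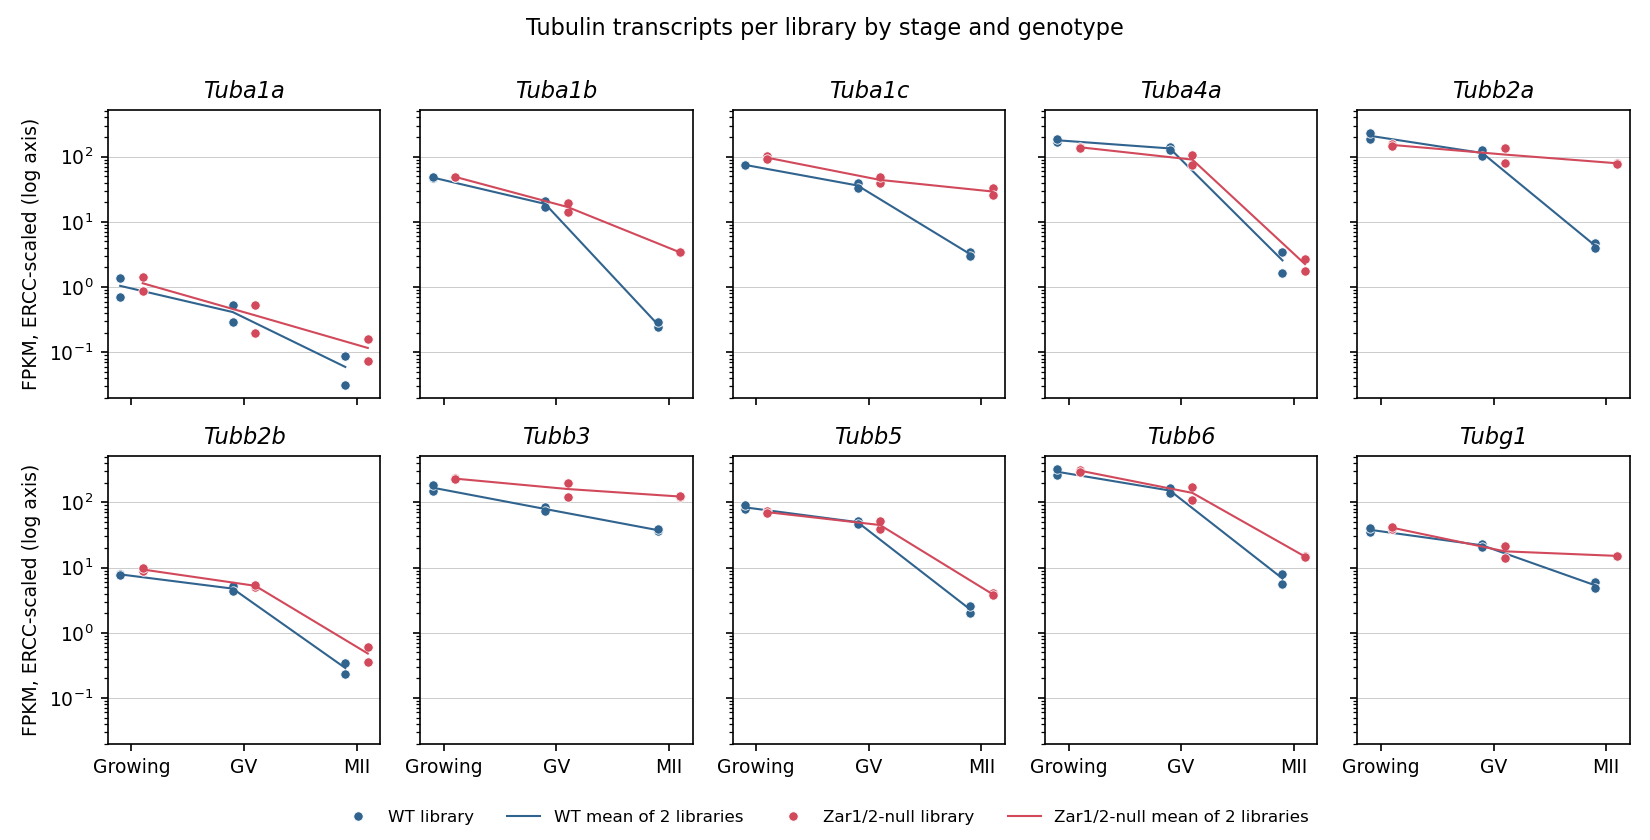
ERCC-scaled FPKM (log axis) of each member by stage, with 1 point per library and lines through the mean of 2 libraries for WT and Zar1/2-null oocytes. At MII the null libraries of Tuba1b, Tuba1c, Tubb2a, Tubb3 and Tubg1 lie well above the WT libraries, and those of Tuba1a and Tuba4a overlap them.

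From the growing to the GV stage, 8 of 10 members fell in WT oocytes (limma, Benjamini-Hochberg adjusted p under 0.05), against a background of 28.7% of all tested genes that fell and 2.77% that rose. Tuba1b fell most, from 46.9 and 49.0 FPKM to 20.8 and 16.9 FPKM, by 1.31 on the log2(FPKM + 1) scale (SE 0.16, limma adjusted p = 0.000686). Tubb6 went from 266 and 324 FPKM to 167 and 137 FPKM and Tubb3 from 152 and 185 FPKM to 84.2 and 74.2 FPKM. Growing and GV libraries did not overlap for these genes. Tuba4a went from 169 and 189 FPKM to 142 and 125 FPKM (log2 change -0.41, SE 0.25, limma adjusted p = 0.224), and Tuba1a from 1.04 ± 0.477 to 0.413 ± 0.167 FPKM (SD, n = 2). The count dropped without WT GV replicate 2 or WT growing replicate 2, where fewer genes of the whole table passed as lower as well. With the ERCC factor removed 3 members passed (Tuba1b, Tuba1c and Tubb3), all lower, where 3.23% of all genes were lower and 3.66% higher. The median change over all genes was -0.29 with the factor and 0.02 without it.

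In null oocytes the same step lowered 9 of 10 members, where 55.9% of all genes fell and 4.76% rose. Tubb2a was the member that did not pass, at 158 and 145 FPKM in growing and 80.5 and 135 FPKM in GV libraries (limma adjusted p = 0.0633). The count was smaller without null GV replicate 1, where fewer genes of the whole table passed as lower as well. With median scaling it was 1, where 1776 of the 11502 genes were lower and 2215 higher. With the ERCC factor removed 4 members passed (Tuba1b, Tuba1c, Tubb6 and Tubg1), again all lower, where 21.3% of all genes were lower and 14.3% higher. No member passed the test for a growing-to-GV change that differed between genotypes (interaction term of limma, 0 of 10 called and 0 at an unadjusted p under 0.05). Of all genes, 2.58% had a higher and 11.3% a lower null effect at GV.

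In growing oocytes no member passed the test between genotypes (limma, 0 of 10, and 0 at an unadjusted p under 0.05), against 10.6% of all genes higher and 24.4% lower in the null. Libraries did not overlap for 6 members. Tuba1c, Tubb2b and Tubb3 had both null libraries above both WT libraries, a pattern seen in 22.4% of all genes. Tuba4a, Tubb2a and Tubb5 had both below, as did 47.4% of all genes. Tubb3 was at 238 and 225 FPKM in null and 152 and 185 FPKM in WT oocytes (log2 fold change 0.47, SE 0.21, limma adjusted p = 0.115). Tuba1c was at 102 and 91.0 FPKM in null and 74.7 and 75.0 FPKM in WT oocytes (0.36, SE 0.17, limma adjusted p = 0.13). Tubb3 passed when either null GV library was left out (limma adjusted p = 0.031 and 0.0306), since the fit shares 1 estimate of spread over all libraries. Once the ERCC factor was removed, both passed as higher in the null, at 0.75 for Tubb3 (limma adjusted p = 0.0105) and 0.64 for Tuba1c (limma adjusted p = 0.00408), where 14.9% of all genes were higher and 12.3% lower. Of 5 tested granulosa and cumulus markers, 1 was higher and 3 were lower in null growing oocytes, and their summed level over 14 markers was 14.6 to 22.6 FPKM in null against 29.7 to 33.4 FPKM in WT libraries. The part of these markers in the tubulin values was not tested at any stage.

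In GV oocytes Tubb3 was the one member that passed the test between genotypes. It was at 121 and 200 FPKM in null against 84.2 and 74.2 FPKM in WT oocytes, a ratio of means of 2.02. Its log2 fold change was 0.97 (SE 0.21, limma adjusted p = 0.00442), higher in both null libraries, while 2.83% of all genes rose and 40.6% fell in the null at this stage. No other gene of the set had both null libraries above both WT libraries (1 of 10, against 6.79% of all genes). Tuba4a had both below (1 of 10, against 63.6%), at 74.5 and 106 FPKM in null and 142 and 125 FPKM in WT oocytes, with a log2 fold change of -0.58 (SE 0.25, limma adjusted p = 0.0809). That value passed when null GV replicate 2, WT MII replicate 1 or WT MII replicate 2 was left out (0.048, 0.0432 and 0.0433). Without null GV replicate 2, Tubg1 also passed as lower (-0.63, limma adjusted p = 0.02). With the ERCC factor removed, Tubb3 rose by 1.42 and Tuba1c by 0.72 (limma adjusted p = 0.000364 and 0.00271), where 7.19% of all genes were higher and 13.5% lower. Of the 5 tested granulosa and cumulus markers, 1 was higher (Inha, 0.97, limma adjusted p = 0.000773) and 2 were lower at GV, with summed levels of 14.2 to 16.2 FPKM in null and 17.4 to 19.7 FPKM in WT libraries.

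The median change over all genes between null and WT GV oocytes was -0.38 with the factor and -0.03 without it. Over the 10 members it was -0.13 and 0.30. The scaling thus shifted the level of a whole library, and the sign of the members' median with it.

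Between GV and MII, tubulin values fell steeply in WT oocytes on the ERCC scale. Of the 10 members, 9 passed as lower, where 93.4% of all genes did and 0.104% rose. Tuba1b went from 20.8 and 16.9 FPKM to 0.242 and 0.293 FPKM, or 1.42% of its GV mean. Tuba4a went from 142 and 125 FPKM to 1.65 and 3.49 FPKM, or 1.92%. These 2 members were left with the smallest shares of the set.

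Tubb2a kept 3.82%, Tubb6 4.48%, Tubb5 4.60%, Tubb2b 6.06% and Tuba1c 8.86% of the WT GV mean at MII, where the median of all tested genes was 18.3%. Tubg1 kept 24.5% and Tubb3 47.4%, above that median. Tubb3 was still at 36.3 and 38.8 FPKM and was the most abundant of the 10 transcripts in WT MII oocytes. Removing the ERCC factor left 7 members lower, where 47.6% of all genes were lower and 19.7% higher. It turned Tubb3 to higher (log2 change 0.67, limma adjusted p = 0.00623), with Tubg1 at -0.27 (limma adjusted p = 0.223). The median change over all genes was -1.28 with and -0.43 without the factor.

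In null oocytes, as in WT oocytes, the decrease from GV to MII was uneven between members. Of the 10 members, 6 passed as lower, where 68.7% of all genes did and 0.209% rose. Tuba4a went from 74.5 and 106 FPKM to 2.72 and 1.77 FPKM, or 2.50% of its null GV mean. Tubb5 kept 8.69%, Tubb2b 9.15% and Tubb6 10.6%. Tuba1b kept 20.1%, Tuba1c 66.4%, Tubb2a 73.5%, Tubb3 76.7% and Tubg1 85.0%, where the median of all genes was 35.3%. Tubb2a, Tubb3 and Tubg1 did not pass as lower (limma adjusted p = 0.145, 0.182 and 0.411), but did without null GV replicate 1 (-0.76, -0.70 and -0.50). The call of Tuba1c (-0.58, limma adjusted p = 0.0111) was lost without null GV replicate 2 or null MII replicate 2 (0.0783 and 0.105). Without the ERCC factor 5 members were lower and 4 were higher at MII, namely Tuba1c, Tubb2a, Tubb3 and Tubg1, where 40.5% of all genes were lower and 19.5% higher. On that scale the MII mean of Tubb2a was 13.0% of the GV mean in WT and 155% in null oocytes, whereas that of Tubb3 was 160.2% and 162%. The median of all genes on the same scale was 61.6% in WT and 73.5% in null oocytes.

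**Figure D3:**
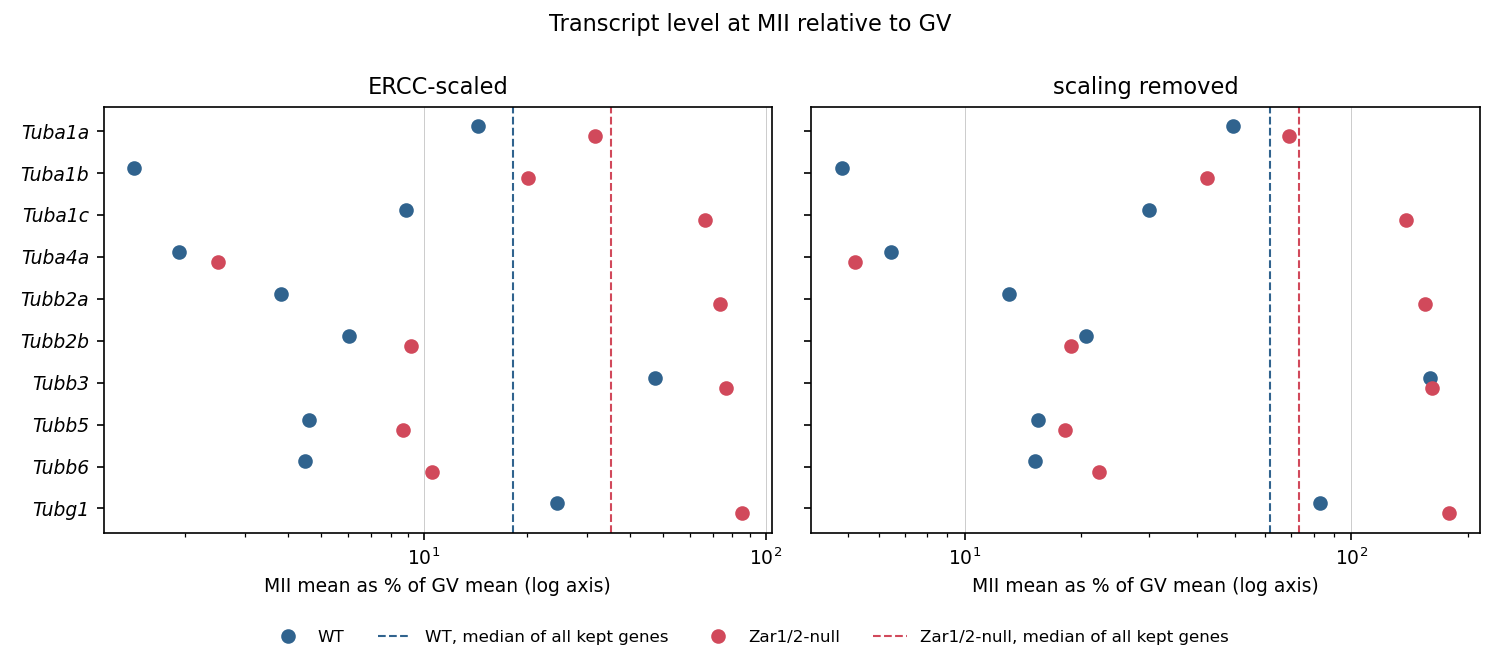
Mean FPKM at MII as a percent of the mean at GV (log axis, 2 libraries per mean) for each member in WT and Zar1/2-null oocytes, with ERCC scaling (left) and without it (right). Dashed lines are the medians of all tested genes, 18.3% (WT) and 35.3% (null) with scaling and 61.6% and 73.5% without it. Tubb2a moves from 3.82% in WT to 73.5% in null oocytes, while Tuba4a is at 1.92% and 2.50% with scaling and at 6.46% and 5.19% without it.

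Of the 3 stages, MII gave the largest genotype differences among the members. By limma, 7 of 10 members were higher in null oocytes and none was lower, where 21.5% of all genes were higher and 10.3% lower. Both null libraries lay above both WT libraries for 8 of 10 members, against 43.5% of all genes. The count was 7 as well without the ERCC factor, all higher, where 24.6% of all genes were higher and 23.4% lower. With median scaling it was also 7, against 25.5% and 25.4%.

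Tubb2a differed most. It was at 80.8 and 77.6 FPKM in null against 4.70 and 4.01 FPKM in WT MII oocytes, a ratio of means of 18.2. The log2 fold change was 3.91 (SE 0.23, limma adjusted p = 1.63e-07), with no overlap of libraries. Its near copy Tubb2b was at 0.607 and 0.354 FPKM in null and 0.344 and 0.232 FPKM in WT oocytes (log2 fold change 0.20, SE 0.14, limma adjusted p = 0.338). Both null libraries of Tubb2b were the higher ones, but all 4 values were under 1 FPKM, where the added 1 FPKM shrinks a fold change. The coding ends printed above differed between these 2 genes at 3 bases.

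The alpha genes split in the same comparison. Tuba1c was at 32.7 and 25.7 FPKM in null against 3.40 and 3.01 FPKM in WT oocytes, a ratio of 9.13 (log2 fold change 2.84, SE 0.17, limma adjusted p = 2.17e-07). Tuba1b was at 3.39 and 3.40 FPKM against 0.242 and 0.293 FPKM, a ratio of 12.7 (1.79, SE 0.16, limma adjusted p = 5.47e-06). In both genes the null libraries lay far above the WT ones. Both WT values of Tuba1b were under 1 FPKM, however, so that its ratio is uncertain. Tuba4a was at 2.72 and 1.77 FPKM against 1.65 and 3.49 FPKM (-0.10, SE 0.25, limma adjusted p = 0.845). Tuba1a was under 0.2 FPKM in all 4 libraries, so that no fold is given.

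Of the other beta genes, Tubb3 was at 122 and 124 FPKM in null and 36.3 and 38.8 FPKM in WT MII oocytes (log2 fold change 1.69, SE 0.21, limma adjusted p = 9.59e-05). Tubb6 was at 14.8 and 14.7 FPKM against 5.53 and 8.08 FPKM (1.03, SE 0.23, limma adjusted p = 0.00442). Tubb5 was at 4.03 and 3.78 FPKM against 1.99 and 2.58 FPKM (0.58, SE 0.17, limma adjusted p = 0.0213). The call of Tubb5 was lost without WT MII replicate 1 (limma adjusted p = 0.151), null MII replicate 1 (0.107) or null MII replicate 2 (0.0657), and that of Tubb6 without WT MII replicate 1 (0.0536). Tubg1, the nucleating tubulin, was at 15.0 and 15.2 FPKM against 5.92 and 4.81 FPKM, a ratio of 2.81 (log2 fold change 1.34, SE 0.20, limma adjusted p = 0.000291).

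Most of the listed oocyte markers were also higher in null MII oocytes. Of 10 markers, 8 were higher and none was lower (median log2 fold change 1.35), where 21.5% of all genes were higher and 10.3% lower. Dppa3 (0.16) and Oosp1 (0.10) did not pass. Without the ERCC factor 7 were higher and 0 lower, where 24.6% of all genes were higher and 23.4% lower. The summed level of the 10 markers was 7259 to 8482 FPKM in null against 4508 to 5480 FPKM in WT libraries. The median over the 10 tubulin members was 1.19, and over all genes 0.06. Of the 14 granulosa and cumulus markers, 5 were tested and 0 passed in either direction by limma (1 at an unadjusted p under 0.05, and 1 lower, Kitl, without the ERCC factor), with summed levels of 7.26 to 8.49 FPKM in null and 5.14 to 5.52 FPKM in WT MII libraries.

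**Figure D4:**
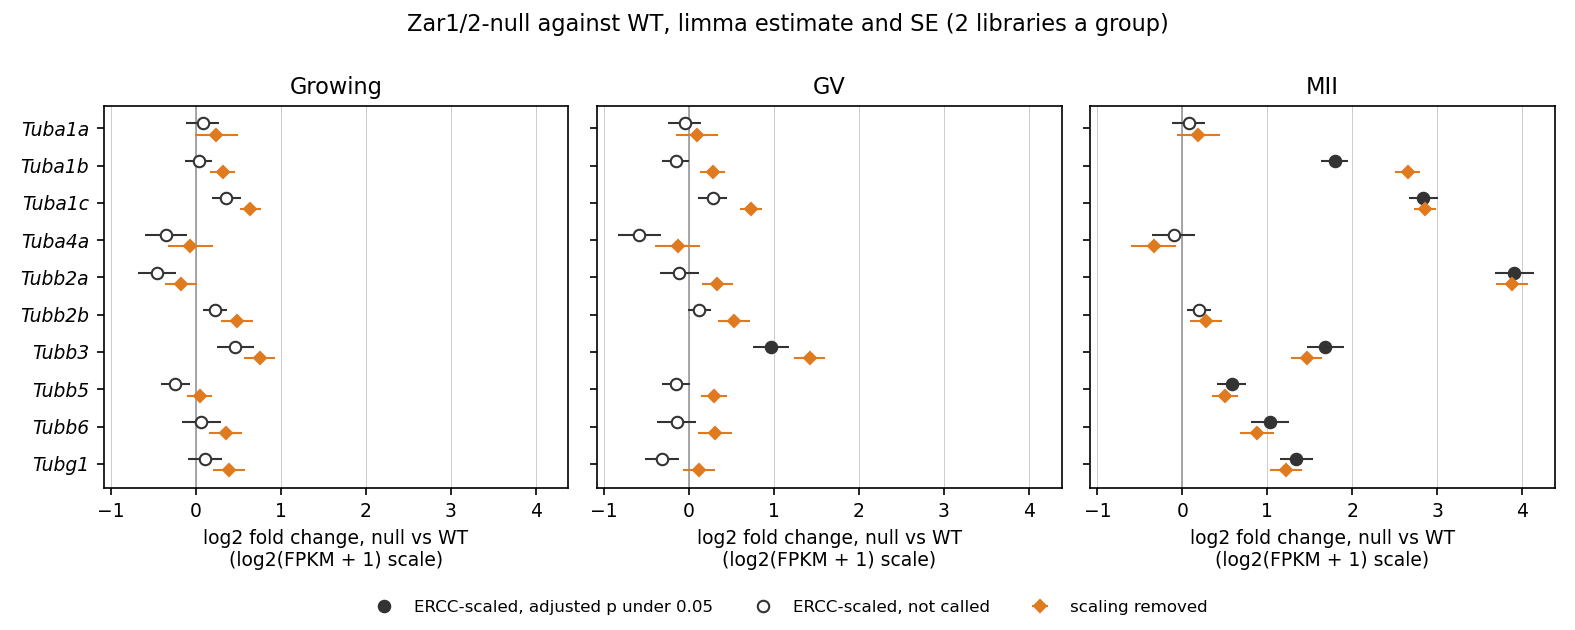
Log2 fold change of Zar1/2-null against WT oocytes on the log2(FPKM + 1) scale for each member at the 3 stages, with bars of 1 SE from limma (2 libraries a group). Circles are ERCC-scaled values (filled where the adjusted p was under 0.05) and diamonds the values without scaling. At MII 7 members lie above 0 and are filled, led by Tubb2a at 3.91.

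The genotype effect at MII was compared with that at GV by an interaction term. For 6 of 10 members it was larger at MII (limma), where this held for 33.9% of all genes and the reverse for 0.643%. The difference of effects was 4.02 for Tubb2a (SE 0.32, limma adjusted p = 3.88e-06), 2.56 for Tuba1c and 1.95 for Tuba1b. It was 1.66 for Tubg1, 1.18 for Tubb6 and 0.74 for Tubb5. Tubb3, which was already higher at GV, had a difference of 0.72 (SE 0.30, limma adjusted p = 0.0854). Without the ERCC factor the terms of Tubb6 and Tubb5 no longer passed (limma adjusted p = 0.173 and 0.551), leaving 4 members, where 15.1% of all genes had a higher and 6.46% a lower term. With 1 of WT GV replicate 1, null GV replicate 1 or WT MII replicate 1 left out, the adjusted p was 0.0525 to 0.0731 for Tubb6 and 0.098 to 0.125 for Tubb5, and Tubb5 also missed the threshold without either null MII library. Tubb3 passed without null GV replicate 2 (1.08, limma adjusted p = 0.00589). The GV libraries enter both this term and the GV comparison above.

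The make-up of each tubulin class does not depend on the ERCC factor, since all genes of a library share it. In WT oocytes Tuba4a provided 59.0% of the summed FPKM of the 4 alpha members in growing, 70.8% in GV and 40.8% in MII oocytes (means of 2 libraries). In null oocytes it provided 48.8%, 59.3% and 6.36%. Tuba1c made up most of the alpha members in null MII oocytes, at 84.1% and 82.8% in the 2 libraries against 63.9% and 43.8% in WT. The 2 WT MII libraries thus differed more between themselves than the null ones. With all 8 alpha genes of the table counted, Tubal3, outside the set, led in WT MII oocytes at 51.1%, against 24.4% in null ones. On that basis Tuba4a was at 13.0% in WT and 4.19% in null MII oocytes, and Tuba1c at 16.3% and 54.9%.

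Among the 5 beta members, Tubb3 made up 22.0%, 19.9% and 73.3% in WT growing, GV and MII oocytes and 30.1%, 34.8% and 55.6% in null oocytes. Tubb2a went from 28.4% at GV to 8.54% at MII in WT oocytes, and in null oocytes its share was 23.4% at GV and 35.8% at MII. Tubb6 provided 13.2% in WT and 6.67% in null MII oocytes after 38.0% and 30.6% at GV. With all 8 beta genes of the table counted, Tubb4b, which led by far at GV (65.4% in WT and 59.9% in null oocytes), was at 20.9% and 11.9% at MII. Shares are given as descriptions, with no test, and levels between near-identical genes carry the limit given above.

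**Figure D5:**
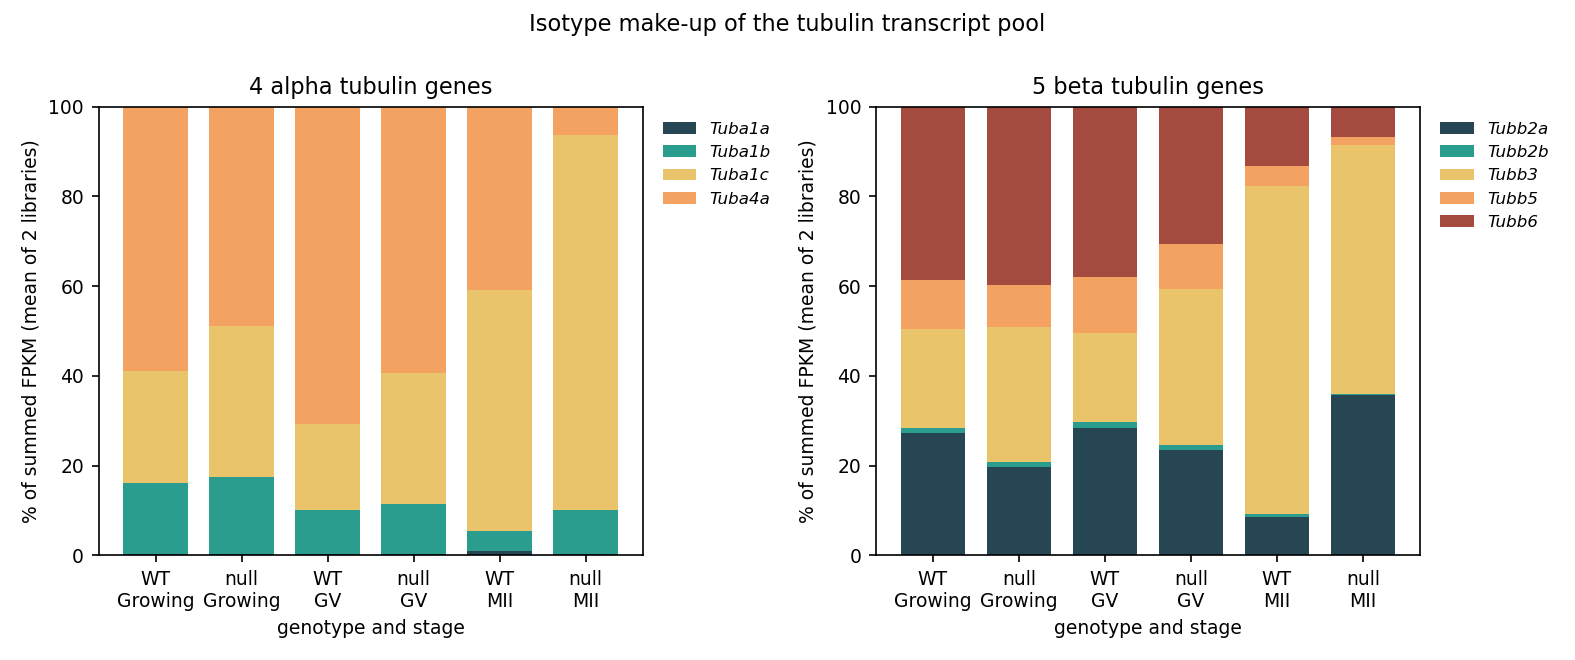
Share of each gene in the summed FPKM (y axis, percent, mean of 2 libraries) of the 4 alpha (left) and 5 beta members (right), by genotype and stage. In null MII oocytes Tuba4a shrinks to 6.36% of the alpha members and Tubb2a reaches 35.8% of the beta members.

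The 10 other tubulin genes of the table gave 7 that could be tested. In growing oocytes 5 of these 7 were lower in the null, where 24.4% of all genes were, led by Tuba3b, an alpha tubulin, at 3.06 and 4.73 FPKM against 48.3 and 40.4 FPKM (log2 fold change -3.23, limma adjusted p = 4.12e-06). Tuba3a, Tubal3 and the delta and epsilon tubulins Tubd1 and Tube1, known from centrioles, were also lower, by 0.64 to 0.92. At GV, Tuba3b, Tubd1 and Tube1 were lower (-1.90, -1.44 and -1.36), or 3 of 7 against 40.6% of all genes. At MII, Tubb4b was higher, at 29.9 and 30.0 FPKM against 13.2 and 14.0 FPKM (1.09, SE 0.20, limma adjusted p = 0.00127), as was the second gamma tubulin Tubg2 at 30.5 and 32.8 FPKM against 11.2 and 11.6 FPKM (1.39, SE 0.22, limma adjusted p = 0.000519). Tubd1 and Tube1 were lower at this stage as well (-0.94 and -1.27), so that 2 of 7 were higher and 2 lower, against 21.5% and 10.3% of all genes. Without the ERCC factor 1 of the 7 was higher and 3 lower in growing, 0 and 3 in GV, and 3 and 2 in MII oocytes. Of all genes on that scale, 14.9% were higher and 12.3% lower in growing oocytes. The shares were 7.19% and 13.5% in GV, and 24.6% and 23.4% in MII oocytes. Tuba8, Tubb1 and Tubb4a never reached 1 FPKM.

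The list of tubulin cofactors, prefoldin subunits, Arl2 and Ttc5 held 13 tested genes. Of these, 9 were higher and 1 lower in null MII oocytes (median log2 fold change 0.79), where 21.5% of all genes were higher and 10.3% lower. Without the ERCC factor the count was 9 and 2, where 24.6% of all genes were higher and 23.4% lower. Tbcb, the cofactor that binds alpha tubulin, was at 45.6 and 37.2 FPKM in null against 1.40 and 1.91 FPKM in WT oocytes (log2 fold change 3.996, SE 0.16, limma adjusted p = 1.09e-08). Arl2, a small GTPase that works with the cofactors, was at 61.9 and 48.5 FPKM against 2.30 and 2.94 FPKM (3.95). Pfdn5, a prefoldin subunit, and Tbca, the beta tubulin cofactor, rose by 2.31 and 2.12. Ttc5, the decay factor named above, was lower in null GV oocytes, at 4.35 and 6.63 FPKM against 30.0 and 19.0 FPKM (-1.96, SE 0.22, limma adjusted p = 8.09e-05), and under 0.4 FPKM in all MII libraries. At GV 3 of the 13 were lower and 0 were higher with the factor (40.6% of all genes were lower). Without it the count was 1 and 0, where 13.5% of all genes were lower and 7.19% higher.

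Genes for enzymes of the tubulin tail and of lysine modification gave 18 tested, of which 5 were higher and 1 lower at MII (median log2 fold change 0.23). That share of higher genes was near the 21.5% of all genes, and 10.3% of all genes were lower. Without the ERCC factor 6 were higher and 2 lower, where 24.6% of all genes were higher and 23.4% lower. Svbp, the partner of the enzymes that remove the C-terminal tyrosine, was at 44.8 and 44.0 FPKM in null against 0.667 and 0.595 FPKM in WT MII oocytes (log2 fold change 4.80, SE 0.14, limma adjusted p = 9.82e-10). The genes of these enzymes, Vash1 and Vash2, stayed under 1 FPKM in every library. Tpgs2, a polyglutamylase subunit, and Sirt2, a deacetylase that accepts alpha tubulin, were higher by 1.40 and 1.27. At GV 2 were higher and 6 lower, where 2.83% of all genes were higher and 40.6% lower. Among the lower ones was Agtpbp1, which trims glutamates, at 8.28 and 9.18 FPKM against 52.1 and 26.9 FPKM (-1.98, SE 0.25, limma adjusted p = 0.000167). The GV split without the ERCC factor was 3 higher and 3 lower, where 7.19% of all genes were higher and 13.5% lower.

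The gamma tubulin ring complex and augmin, which brings that complex to spindle microtubules, gave 16 tested genes. At MII 6 were higher and 2 lower (median log2 fold change 0.07), against 21.5% and 10.3% of all genes. Without the ERCC factor 6 were higher and 4 lower, against 24.6% and 23.4% of all genes. The augmin subunits Haus1 and Haus8 and the ring protein gene Mzt2 were higher by 1.79, 1.72 and 1.25, whereas Mzt1, which also encodes a small ring protein, was lower at 9.35 and 8.51 FPKM against 22.5 and 19.9 FPKM (-1.16, SE 0.18, limma adjusted p = 0.000464). At GV 6 were lower and 0 higher, close to the 40.6% of all genes that were lower, among them Haus1 (-1.93) and Mzt1 (-1.03). Removing the ERCC factor left 2 lower at GV, where 13.5% of all genes were, and Haus1 and Mzt1 were these 2.

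Of 18 tested genes of microtubule dynamics, 3 were higher and 1 lower in null MII oocytes, against 21.5% and 10.3% of all genes. At GV 12 were lower, where 40.6% of all genes were. Stmn1, which sequesters dimers, was higher at MII by 1.06 (SE 0.17, limma adjusted p = 0.000503), and Mapre2, a plus-end binding protein, was lower at GV by 1.06 (SE 0.15, limma adjusted p = 0.000332). Without the ERCC factor 1 was higher and 1 lower at GV, where 7.19% of all genes were higher and 13.5% lower. At MII 3 were higher and 6 lower on that scale, against 24.6% and 23.4% of all genes. The median log2 fold change of the 18 genes at MII was -0.06.

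Finally, the genes most alike in pattern were sought over the 12 libraries among the 4326 genes that averaged 10 FPKM or more. Tuba4a was closest to Ccdc130, Xrcc6 and Ranbp1 (Pearson r of log2(FPKM + 1) from 0.998 to 0.999). Tubb6 was closest to Coq9, 1110008F13Rik and Yipf3 (0.998 to 0.999), and Tubg1 to Gpr180, Mcfd2 and Astl (0.993 to 0.996). The libraries fall into 6 groups and share their ERCC factors across genes, so that these coefficients describe the group pattern.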

How the data were processed

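Oocytes were sequenced by Smart-seq2. The authors cut reads to 50 bp, aligned them to mm9 by TopHat2 2.1.1, kept unique reads, and computed FPKM with Cufflinks 2.2.1 on UCSC gene models. The deposited FPKM values were multiplied by the authors with an ERCC factor relative to the WT growing library of the same replicate number. Each factor was recovered from the 6 significant digits that return once it is divided out.

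Groups came from the sample titles. limma 3.58.1 (R 4.3.3) was fitted to log2(FPKM + 1) of the 11502 genes that reached 1 FPKM in any library. The model had a term for each of the 6 groups, used all 12 libraries and an eBayes trend. Two-sided p-values were adjusted by Benjamini-Hochberg over all these genes and called under 0.05. The code was tested on simulated data. An exact test of 2 against 2 libraries cannot go below p = 0.333. Fold changes on this scale understate low genes. The methods give another age for the growing oocytes than the labels.

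Members and lists were chosen with earlier results of these data known. Named genes were all members, the other tubulins, and up to 4 genes per list and comparison (GV and MII) that passed with an absolute log2 fold change of at least 1. Positions, sequences and windows came from the mm9 genome with GENCODE vM1 models, read in Python 3.11.15. Alternatives were removal of the ERCC factor, median scaling, other pseudocounts and filters, a replicate block, no trend, only the libraries compared, and leaving out each library. The coding end of one gene pair is not reported here.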

Additional observations from a re-analysis of the deposited data

Results flagged for a closer look

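For 6 members the effect of the null genotype differed between MII and GV oocytes by the interaction term of limma (log2 scale, 2 libraries a group). The difference was 4.02 for Tubb2a, 2.56 for Tuba1c, 1.95 for Tuba1b, 1.66 for Tubg1, 1.18 for Tubb6 and 0.74 for Tubb5. The median of the same term over all genes was 0.48 with and 0.03 without the ERCC factor. Groups of 2 libraries are too small for a search for outlying samples.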

How the results depend on the processing

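Without the ERCC factor the numbers of members called were 2 (null against WT growing), 2 (GV), 3 (WT, GV against growing) and 4 (null, GV against growing), in place of 0, 1, 8 and 9, and with median scaling they were 2, 3, 2 and 1. In these comparisons with median scaling, 1395, 1090, 278 and 2215 of the 11502 genes were higher and 1447, 1181, 265 and 1776 lower. Without a filter on low values 5 members were called in WT GV against growing, where 2364 of 23230 genes were lower and 368 higher. Leaving out 1 library at a time gave 0 to 1 (growing; 1 without either null GV library), 1 to 3 (GV; 3 without null GV replicate 2 and 2 without either WT MII library), 2 to 9 (WT, GV against growing; 2 without WT GV replicate 2 and 3 without WT growing replicate 2), 5 to 10 (null, GV against growing; 5 without null GV replicate 1) and 0 to 1 (interaction of GV with growing; 1 without null GV replicate 1). The MII comparison kept 5 to 7 calls, the other steps 9 to 10 (WT) and 5 to 9 (null), and the interaction of MII with GV 4 to 7. Calls over all genes also moved with the library left out. In WT MII against GV, the change of Tubb3 turned to 0.67 without the factor and 1.27 with median scaling. That of Tubg1 turned to 0.31 with median scaling. In null MII against GV, Tuba1c turned to 0.46 and 0.92, Tubb2a to 0.66 and 1.12, Tubb3 to 0.72 and 1.18, and Tubg1 to 0.84 and 1.30. In null GV against growing, median scaling turned Tuba4a to 0.080, Tubb3 to 0.16 and Tubb5 to 0.066. These reversals follow the scaling by construction, since 1 factor multiplies a whole library. Of 1792 values of single members under all alternatives, 1666 kept their side of the threshold with no called value changing sign, 82 lost a call, 30 gained one and 14 reversed. Among the 1666 were 56 uncalled values that changed sign.

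Same-numbered libraries of 2 groups shared little (correlation of their deviations over 11502 genes -0.12 to 0.16), so the numbers were not taken to pair the samples. The number still enters the scaling, since each ERCC factor is relative to the WT growing library of that number. The main fit had no term for it. With a replicate block 0, 1 and 7 members were called between genotypes in growing, GV and MII oocytes, 9 and 9 in the steps to GV, 10 and 6 in the steps to MII, and 0 and 6 in the interactions. For GV a block with the null numbers crossed, added after seeing the data, also gave 1.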
